A study of Mus musculus with 6 samples.

Results

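The organic anion and cation transporters of the mouse kidney were described here as 48 of the 54146 genes in the deposited count files. They were chosen by symbol, as the Slc22a, Slc17a, Slc47a, Slco and Abcc families plus Abcg2, with Slc22a5 left out by name. A gene also needed raw counts summing to 60 or more over the 6 libraries, so the summed counts chose the members and the difference between groups did not. Of 62 genes with a matching symbol, 13 were below that sum, and 6 of those 13 had no count at all. The 48 members were 22 Slc22a, 9 Abcc, 8 Slco, 6 Slc17a and 2 Slc47a genes and Abcg2. Just inside the sum lay Slc22a27 with 75 counts and Abcc8 with 78, and just outside lay Slc17a2 with 38 and Slco5a1 with 26.

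Poly A+ RNA was sequenced from whole kidneys of B6C3F1/J mice at 12 weeks of age, in 3 KspCre Tfam f/f-labelled libraries and 3 labelled Tfam f/f. Both groups carry the floxed Tfam allele, and KspCre is a Cre recombinase driven by the promoter of the kidney-specific cadherin Cdh16, which is active in tubule epithelium. Tfam encodes the mitochondrial transcription factor that packages mitochondrial DNA. The labels do not say that each library came from its own animal, so the p-values measure the spread between these libraries alone, which may be technical.

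The targeted gene went against the labels. Tfam (chromosome 10, 71225464 to 71238280, minus strand, mm10) had 63.1, 63.5 and 61.4 CPM, the gene's counts scaled to the normalised library size, in the KspCre Tfam f/f-labelled libraries, against 30.3, 33.6 and 23.2 CPM in those labelled Tfam f/f. It was 2.15-fold higher in the libraries labelled with the Cre (log2 fold change 1.11, SE 0.14, edgeR adjusted p = 0.00107). Messenger RNAs encoded by mitochondrial DNA took 11.01, 10.98 and 11.05% of gene counts in the KspCre Tfam f/f-labelled libraries, against 3.24, 5.67 and 2.39% in those labelled Tfam f/f. Groups are therefore named by their label throughout, and every direction below is a direction between labels. Gene counts per library totalled 30348281 to 48899266 under the label KspCre Tfam f/f and 19024208 to 34821537 under the label Tfam f/f.

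Proximal tubule cells clear drugs, toxins and metabolic waste in 2 steps, and the genes below encode both. Carriers on the basolateral membrane, which faces the blood, take up anions by exchange for alpha-ketoglutarate and cations along the membrane voltage. Carriers and ATP-driven pumps on the apical membrane, which faces the urine, then release them, and some apical carriers bring urate back into the cell. A cell's set of carriers therefore decides which solutes it can secrete or reclaim.

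As a group, these transporters were higher in the KspCre Tfam f/f-labelled libraries. Of the 48, 29 were called higher and 7 lower in those libraries, and 12 did not pass (edgeR quasi-likelihood test, Benjamini-Hochberg adjusted p below 0.05 over 17308 tested genes). The 29 became 17 without replicate 1 of the Tfam f/f-labelled libraries, 19 without replicate 2 of those labelled KspCre Tfam f/f, and 16 with no filter on low counts. Among tested genes in general, 46.2% were called, 21.3% higher and 24.9% lower. The members' median log2 fold change was 1.09, beside -0.03 for all tested genes. By 2-fold or more, 26 members were called higher and 5 lower, where 8.75% and 13.2% of tested genes were. The libraries of the 2 labels did not overlap for 39 members, 32 of them higher and 7 lower in the KspCre Tfam f/f-labelled libraries; 61.9% of tested genes showed no such overlap, 29.8% higher and 32.1% lower. All 48 had passed the filter on low counts, which a gene can pass through 1 group alone. With library totals alone as the scale, the median of all tested genes moved to -0.46, their calls were 1680 higher and 8519 lower in place of 3690 and 4310, and the members' calls were 23 higher and 11 lower.

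**Figure D1:**
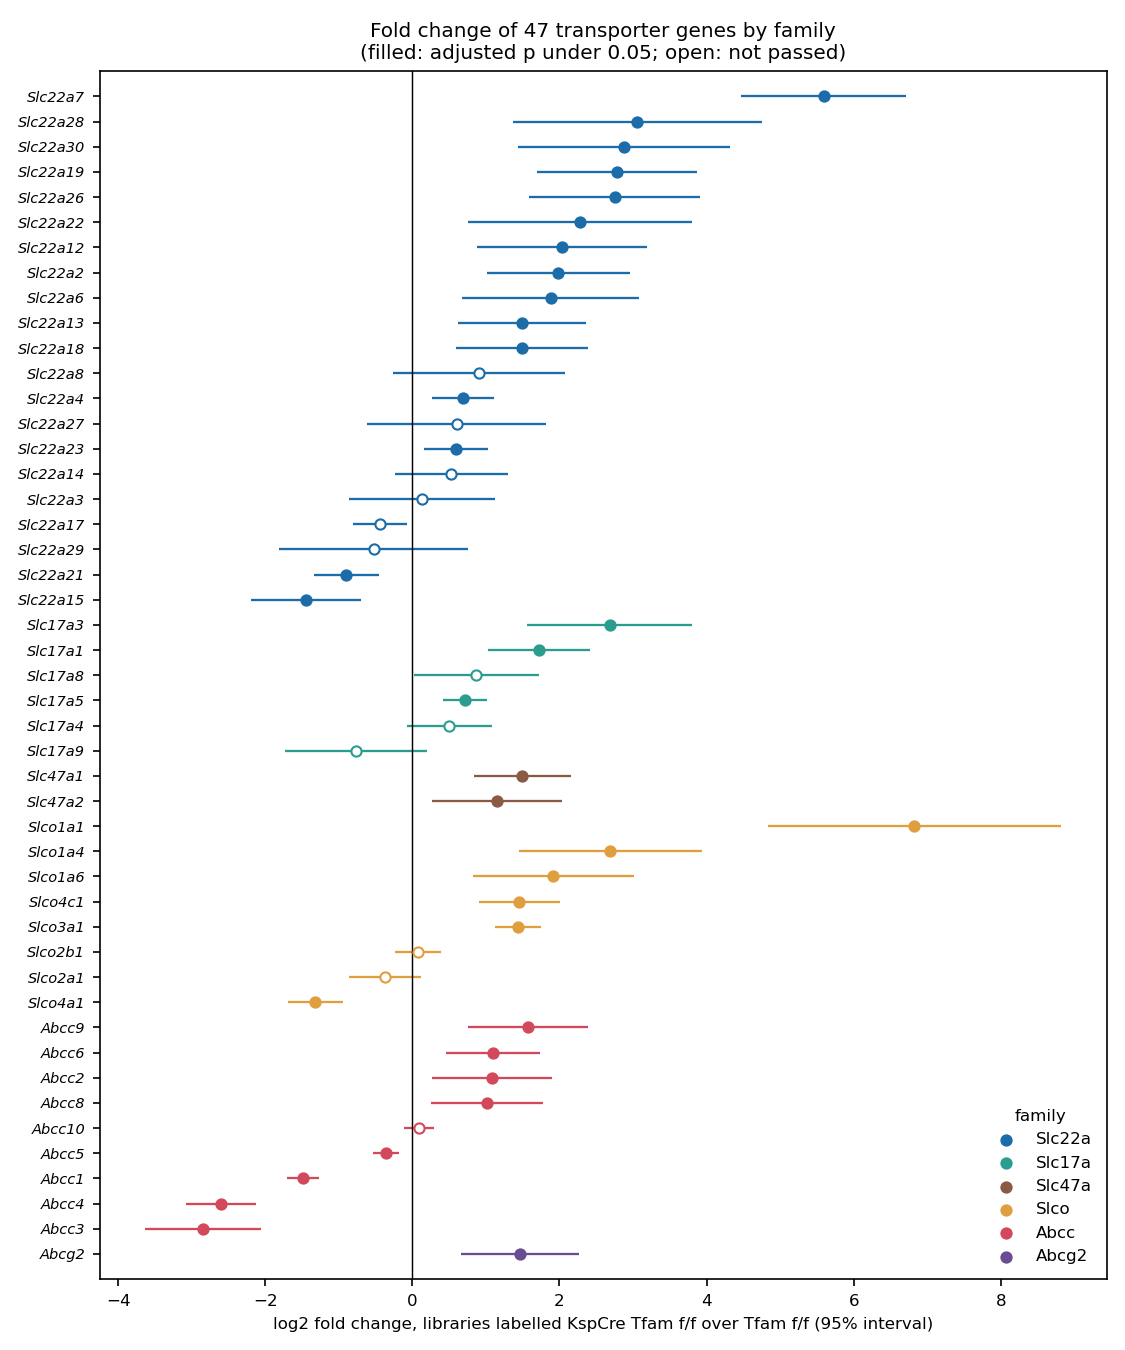
Log2 fold change of 47 of the 48 genes, KspCre Tfam f/f-labelled libraries over those labelled Tfam f/f, with 95% intervals, grouped by family; filled points passed an adjusted p of 0.05 and open points did not. Values run from 6.83 for Slco1a1 to -2.84 for Abcc3, with 28 filled points to the right of 0 and 7 to the left.

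The families differed in how their members fell. Slc22a, the family of organic anion, organic cation and urate carriers, had 14 genes called higher, 2 lower and 6 not passed. Slco, the organic anion transporting polypeptides, had 5 higher, 1 lower and 2 not passed, and Slc17a, the voltage-driven anion and vesicular carriers, had 3 higher and 3 not passed. Both Slc47a genes, which exchange organic cations for protons, were called higher. The Abcc family of ATP-driven pumps and channel subunits had 4 higher, 4 lower and 1 not passed, and its median log2 fold change was 0.09. Thus 4 of the 7 lower calls were Abcc genes. Higher calls in Slc22a were 8 without replicate 2 of those labelled KspCre Tfam f/f or replicate 1 of those labelled Tfam f/f, 9 without replicate 3 of those labelled KspCre Tfam f/f, and 6 with no filter on low counts; for Abcc with Abcg2 they were 1 to 3 in place of 5 without replicate 1 of those labelled Tfam f/f, without any 1 library labelled KspCre Tfam f/f, with no filter, or with library totals alone as the scale. Whether families differ from each other was not tested.

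By membrane side, 13 members were assigned as apical and 10 as basolateral. These assignments are background knowledge, not measured here, and may not hold for each gene in mouse kidney. Slc47a2, counted as apical, had only 92 raw counts in all. Of the apical members, 12 were called higher and 1 lower in the KspCre Tfam f/f-labelled libraries, and their log2 fold changes had a median of 1.496 and a range of -2.60 to 6.83. Of the basolateral members, 5 were called higher, 3 lower and 2 did not pass, with log2 fold changes of -2.84 to 1.98. The 5 became 2 without replicate 1 or 2 of those labelled KspCre Tfam f/f or without replicate 1 of those labelled Tfam f/f, and 3 without replicate 3 of those labelled KspCre Tfam f/f or with no filter on low counts. Summed over the apical members, CPM was 7044 ± 334 in the KspCre Tfam f/f-labelled libraries and 2186 ± 971 in those labelled Tfam f/f (SD, n = 3 each). The basolateral sum was 2755 ± 108 CPM in the KspCre Tfam f/f-labelled libraries and 1166 ± 560 CPM in those labelled Tfam f/f. Whether the sides differ from each other was not tested. In whole kidney, fewer cells of a type and less RNA per cell cannot be told apart.

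**Figure D2:**
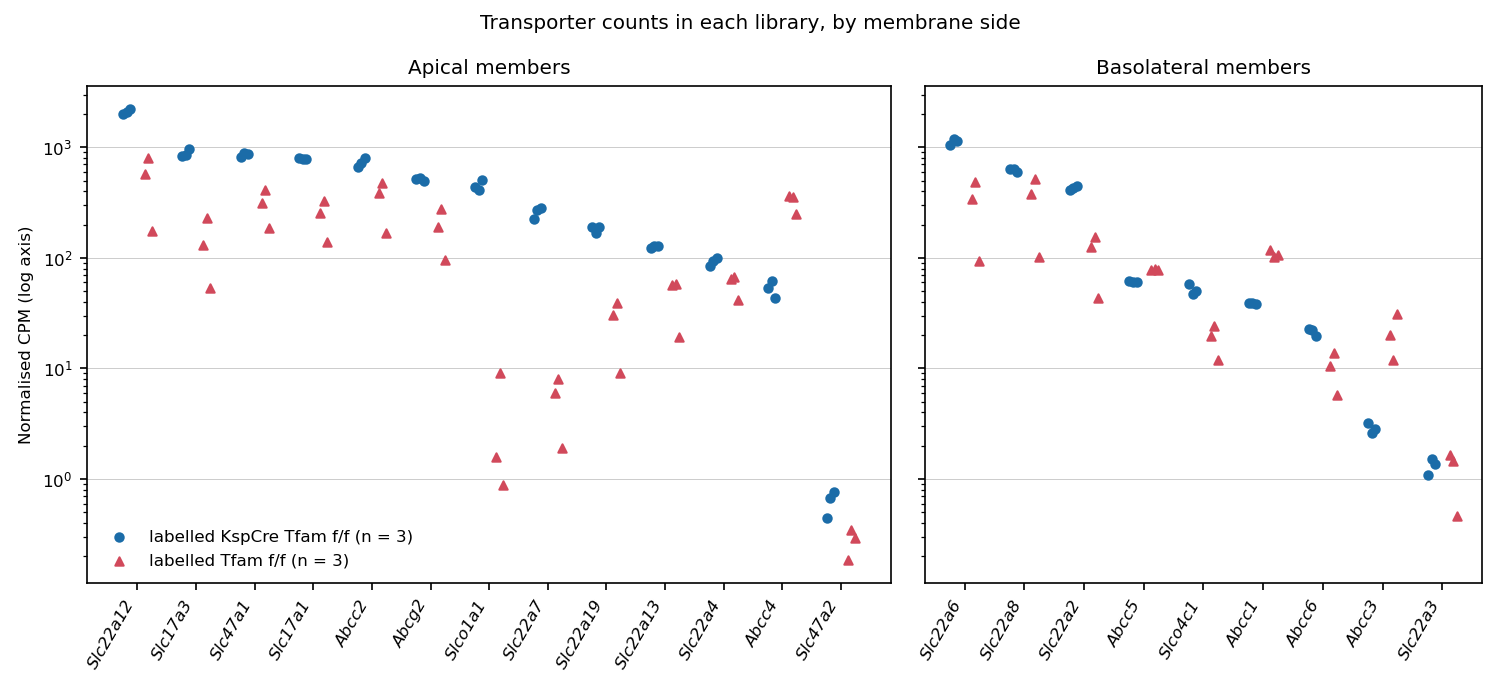
Normalised CPM (log axis) of 13 apical and 9 basolateral members in each library, with circles for KspCre Tfam f/f-labelled libraries and triangles for those labelled Tfam f/f. The triangles of Slco1a1 lie between 0.881 and 9.06 CPM, under circles of 413 to 506, while those of Abcc4 lie between 249 and 365, above circles of 43.7 to 62.4.

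Among apical carriers, Slco1a1 and Slc22a7 had the largest differences of the 48. Slco1a1 (chromosome 6, 141907282 to 141946962, minus strand) encodes an organic anion transporting polypeptide that depends on androgen in mouse kidney. It had 438, 413 and 506 CPM in the KspCre Tfam f/f-labelled libraries, against 1.58, 9.06 and 0.881 CPM in those labelled Tfam f/f. The difference was 113-fold (log2 6.83, SE 0.85, edgeR adjusted p = 0.00127), and 368-fold without replicate 2 of those labelled Tfam f/f, which held the highest of their 3 values. Slc22a7 (chromosome 17, 46432183 to 46438457, minus strand) encodes organic anion transporter 2, apical in rodent kidney and basolateral in human kidney. Its values were 225, 272 and 283 CPM in the KspCre Tfam f/f-labelled libraries and 6.06, 7.96 and 1.89 CPM in those labelled Tfam f/f. It was 48.3-fold higher (log2 5.59, SE 0.48, edgeR adjusted p = 0.000306), the widest gap in which no left-out library moved the fold by over 1.5 times. For both genes the lowest value under the label KspCre Tfam f/f was far above the highest under the label Tfam f/f. The Y-linked gene Ddx3y had 67.8 to 73.3 CPM in the KspCre Tfam f/f-labelled libraries and 43.4 to 75.6 CPM in those labelled Tfam f/f, and Xist, the RNA of the silenced X chromosome, was at most 0.329 CPM in each of the 6.

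Slc22a12, Slc17a3, Slc17a1 and Abcg2, apical carriers or pumps of urate, anions or drugs, were all called higher in the KspCre Tfam f/f-labelled libraries. Abcc4, another apical pump of anions, was called lower in them and is given below. Slc22a12, the urate reabsorber URAT1 (chromosome 19, 6535845 to 6543032, minus strand), had 1990, 2087 and 2238 CPM in the KspCre Tfam f/f-labelled libraries, against 575, 792 and 173 CPM in those labelled Tfam f/f. That was 4.10-fold higher (log2 2.04, SE 0.50, edgeR adjusted p = 0.0133). Since 30.1% of its exon bases lie opposite Nrxn2 exons and the strand setting of the counting is not given in the sources used here, part of its count cannot be assigned with certainty. Slc17a3, a voltage-driven exit path for urate and drugs, had 829, 854 and 962 CPM in the KspCre Tfam f/f-labelled libraries and 130, 229 and 53.0 CPM in those labelled Tfam f/f. It was 6.41-fold higher (edgeR adjusted p = 0.00442), and 9.73-fold without replicate 2 of those labelled Tfam f/f. Its neighbour Slc17a1, a carrier of the same kind, had 798, 784 and 790 CPM in the KspCre Tfam f/f-labelled libraries and 255, 327 and 139 CPM in those labelled Tfam f/f, a 3.29-fold difference (edgeR adjusted p = 0.00369). Replicate 3 of those labelled Tfam f/f was the lowest library for both Slc17a genes and for Slc22a12. Abcg2, the ATP-driven urate and drug pump BCRP, had 520, 529 and 497 CPM in the KspCre Tfam f/f-labelled libraries, against 190, 276 and 94.8 CPM in those labelled Tfam f/f. It was 2.75-fold higher (log2 1.46, SE 0.35, edgeR adjusted p = 0.0119). No Tfam f/f-labelled library reached the lowest value of a KspCre Tfam f/f-labelled library for any of these 4 genes. Without replicate 1 of those labelled Tfam f/f, the adjusted p was 0.0525 for Slc22a12 and 0.0510 for Abcg2; over all alternatives it ranged from 1.39e-05 to 0.0553 and from 5.96e-05 to 0.0510.

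The remaining apical members called higher differed by 1.61-fold to 6.87-fold. Slc22a19, organic anion transporter 5, had 189, 167 and 189 CPM in the KspCre Tfam f/f-labelled libraries and 30.6, 39.4 and 9.07 CPM in those labelled Tfam f/f, a 6.87-fold difference (edgeR adjusted p = 0.00356). Slc47a1, the proton-coupled cation extruder MATE1, had 819, 892 and 861 CPM in the KspCre Tfam f/f-labelled libraries and 310, 414 and 187 CPM in those labelled Tfam f/f, 2.82-fold higher (edgeR adjusted p = 0.00518). Slc22a13, a urate and nicotinate carrier, had 123, 128 and 128 CPM in the KspCre Tfam f/f-labelled libraries and 57.2, 58.4 and 19.2 CPM in those labelled Tfam f/f, 2.81-fold higher (edgeR adjusted p = 0.0151; lost with no filter on low counts, range 9.27e-05 to 0.0930). These 3 genes kept separate groups, though 21.8% of the 100-base windows of Slc22a13 also occur in another gene. Abcc2, the pump MRP2 for conjugated anions, had 666, 715 and 802 CPM in the KspCre Tfam f/f-labelled libraries, against 383, 479 and 169 CPM in those labelled Tfam f/f, 2.12-fold higher (edgeR adjusted p = 0.0368). Slc22a4, a carrier of ergothioneine and cations, had 84.7, 94.5 and 99.8 CPM in the KspCre Tfam f/f-labelled libraries and 64.6, 66.9 and 41.3 CPM in those labelled Tfam f/f, 1.61-fold higher (edgeR adjusted p = 0.0176). Slc47a2, the second extruder of the MATE family, had 0.446, 0.676 and 0.763 CPM in the KspCre Tfam f/f-labelled libraries and 0.184, 0.342 and 0.294 CPM in those labelled Tfam f/f, 2.22-fold higher (edgeR adjusted p = 0.0395). Those last 3 calls were the least stable of the apical ones. Abcc2 was lost without any 1 of the 3 KspCre Tfam f/f-labelled libraries or without replicate 1 of those labelled Tfam f/f (adjusted p over all alternatives 0.00357 to 0.105), Slc22a4 without replicate 2 or 3 of those labelled KspCre Tfam f/f (0.00354 to 0.140), and Slc47a2 without 4 of the 6 libraries in turn (0.0368 to 0.134). With library totals alone as the scale, these 3 were also lost.

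On the basolateral side, the uptake carriers of the Slc22a family included the members with the highest counts. Slc22a6, organic anion transporter 1 (chromosome 19, 8618039 to 8628299, plus strand), had 1046, 1180 and 1138 CPM in the KspCre Tfam f/f-labelled libraries, against 338, 481 and 93.4 CPM in those labelled Tfam f/f. It was 3.68-fold higher (log2 1.88, SE 0.52, edgeR adjusted p = 0.0212), and the call was lost without any 1 of the KspCre Tfam f/f-labelled libraries or without replicate 1 of the others (adjusted p over all alternatives 0.000146 to 0.106). Slc22a8, organic anion transporter 3 (chromosome 19, 8591254 to 8611835, plus strand), lies beside it and shares its exchange mechanism. It had 634, 640 and 592 CPM in the KspCre Tfam f/f-labelled libraries and 374, 518 and 101 CPM in those labelled Tfam f/f. Although the groups did not overlap, the 1.88-fold difference did not pass (95% interval of the fold 0.833 to 4.23, edgeR adjusted p = 0.172). Without replicate 3 of those labelled Tfam f/f, the lowest of them, it passed at a log2 fold change of 0.48 (adjusted p = 0.0349, range over all alternatives 0.0349 to 0.394).

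Among the basolateral cation carriers, Slc22a2 was called higher and Slc22a3 did not pass. Slc22a2, organic cation transporter 2 (chromosome 17, 12584132 to 12628488, plus strand), had 409, 430 and 444 CPM in the KspCre Tfam f/f-labelled libraries, against 126, 155 and 43.0 CPM in those labelled Tfam f/f. It was 3.95-fold higher (log2 1.98, SE 0.42, edgeR adjusted p = 0.00809). Its groups stood apart, with replicate 3 of those labelled Tfam f/f the lowest. Slc22a3, organic cation transporter 3, had 1.08, 1.52 and 1.37 CPM in the KspCre Tfam f/f-labelled libraries and 1.65, 1.45 and 0.462 CPM in those labelled Tfam f/f. Its groups overlapped and the log2 fold change of 0.14 did not pass (95% interval -0.85 to 1.13, edgeR adjusted p = 0.812). Slco4c1, a basolateral carrier of digoxin and thyroid hormone, had 57.5, 47.0 and 49.9 CPM in the KspCre Tfam f/f-labelled libraries, against 19.6, 24.4 and 12.0 CPM in those labelled Tfam f/f. It was 2.74-fold higher (log2 1.46, SE 0.24, edgeR adjusted p = 0.00301).

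Among the ATP-driven export pumps, 4 Abcc genes were lower in the KspCre Tfam f/f-labelled libraries while Abcc2, Abcc6 and Abcg2 were higher. Abcc4, the apical pump MRP4 for cyclic nucleotides and anionic drugs (chromosome 14, 118482692 to 118706219, minus strand), had 52.8, 62.4 and 43.7 CPM in the KspCre Tfam f/f-labelled libraries, against 365, 353 and 249 CPM in those labelled Tfam f/f. It fell by 2.60 on the log2 scale (SE 0.20, edgeR adjusted p = 0.000193), a level 6.08-fold lower than in the Tfam f/f-labelled libraries. Abcc3, the basolateral pump MRP3 for glucuronides (chromosome 11, 94343295 to 94392997, minus strand), had 3.24, 2.63 and 2.86 CPM in the KspCre Tfam f/f-labelled libraries and 20.2, 11.9 and 30.8 CPM in those labelled Tfam f/f, 7.16-fold lower (edgeR adjusted p = 0.00101). For both pumps each Tfam f/f-labelled library was above each KspCre Tfam f/f-labelled one. Abcc1, the basolateral pump MRP1 for glutathione conjugates (chromosome 16, 14361558 to 14475737, plus strand), had 38.8, 39.4 and 38.4 CPM in the KspCre Tfam f/f-labelled libraries and 118, 102 and 107 CPM in those labelled Tfam f/f. It was 2.80-fold lower (log2 -1.49, SE 0.09, edgeR adjusted p = 7.74e-05), with the smallest adjusted p of the 48. Abcc5, a basolateral pump for cyclic nucleotides, had 61.3, 60.2 and 60.7 CPM in the KspCre Tfam f/f-labelled libraries and 77.1, 78.9 and 77.1 CPM in those labelled Tfam f/f. That 1.28-fold lower level passed (edgeR adjusted p = 0.00879), and was lost without any 1 of the KspCre Tfam f/f-labelled libraries (adjusted p over all alternatives 0.000473 to 0.0579). The groups of Abcc1 and Abcc5 did not overlap either.

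Other genes of the Abcc family were higher or did not pass. Abcc6, a basolateral pump of the proximal tubule known for its part in ATP release, had 22.7, 22.2 and 19.5 CPM in the KspCre Tfam f/f-labelled libraries and 10.5, 13.8 and 5.79 CPM in those labelled Tfam f/f, 2.13-fold higher (edgeR adjusted p = 0.0153). The Abcc6 call was lost without replicate 1 or 2 of the KspCre Tfam f/f-labelled libraries or replicate 1 of the others (adjusted p over all alternatives 0.000819 to 0.0539). Abcc8 and Abcc9 carry the family symbol but encode the sulfonylurea receptor subunits of potassium channels and transport no drug. Abcc9 was called 2.97-fold higher (edgeR adjusted p = 0.0102, lost with no filter on low counts, range 4.68e-05 to 0.0704), and Abcc8, with 78 counts in all, 2.02-fold higher (edgeR adjusted p = 0.0369), a call lost without any 1 of the 6 libraries. Abcc10, the pump MRP7, had 32.0, 34.3 and 36.3 CPM in the KspCre Tfam f/f-labelled libraries and 32.9, 30.6 and 32.8 CPM in those labelled Tfam f/f, and did not pass (95% interval of log2 -0.12 to 0.30, edgeR adjusted p = 0.429).

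**Figure D3:**
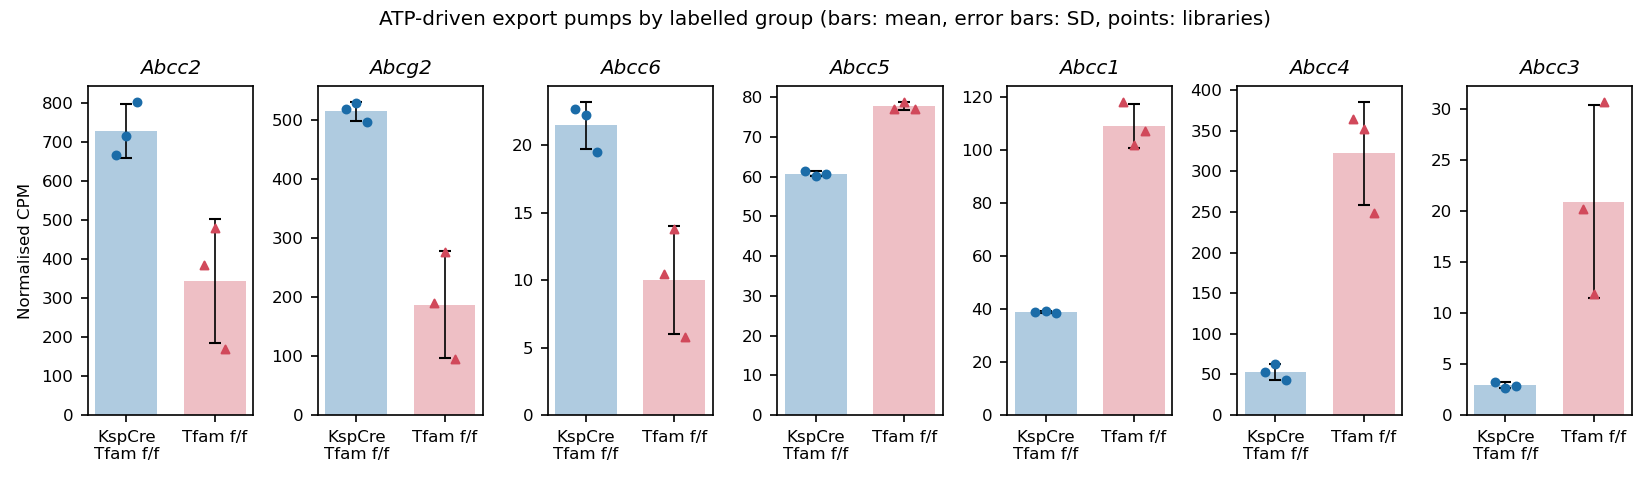
Normalised CPM of ATP-driven export pumps in KspCre Tfam f/f-labelled libraries (left of each panel) and Tfam f/f (right); bars are means, error bars SD (n = 3 each) and points libraries, on axes that start at 0. Abcc4 averaged 53.0 ± 9.33 CPM under the label KspCre Tfam f/f and 322 ± 63.7 CPM under the label Tfam f/f, while Abcg2 averaged 515 ± 16.3 CPM under the label KspCre Tfam f/f and 187 ± 90.7 CPM under the label Tfam f/f.

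Several members sit side by side in the genome, and some neighbours were called alike while others were not. Slc47a1 and Slc47a2, 0.541 kb apart, were both called higher, as were Slc17a1 and Slc17a3, 7.03 kb apart. A gene that did not pass is not thereby shown to differ from its neighbours. On chromosome 19, 8 Slc22a genes lie in 1 block, and 5 of them were called higher while 3, Slc22a8, Slc22a27 and Slc22a29, did not pass. Within that block, Slc22a28 had 232, 210 and 218 CPM in the KspCre Tfam f/f-labelled libraries, against 16.7, 56.6 and 5.46 CPM in those labelled Tfam f/f. Slc22a30 had 316, 280 and 298 CPM in the KspCre Tfam f/f-labelled libraries and 28.4, 81.0 and 11.9 CPM in those labelled Tfam f/f. Slc22a26 had 74.9, 45.0 and 55.7 CPM in the KspCre Tfam f/f-labelled libraries and 7.86, 14.8 and 2.94 CPM in those labelled Tfam f/f. These rodent genes are close relatives of the organic anion transporters, and the groups of each stood apart. They were 8.32-fold (edgeR adjusted p = 0.0126), 7.34-fold (0.00882) and 6.73-fold (0.00479) higher, in that order of naming. Without replicate 2 of the Tfam f/f-labelled libraries the folds were 19.9, 14.9 and 10.9, and without replicate 1 of them Slc22a28 was lost (adjusted p over all alternatives 0.000859 to 0.0964). With no filter on low counts, Slc22a28 and Slc22a30 were both lost (range for Slc22a30 0.000438 to 0.0727). Near-identical copies limit the counting here: 37.0% of the 100-base windows of Slc22a28 and 21.1% of those of Slc22a30 occur in another gene. Slc22a29 had 2.11, 2.63 and 3.51 CPM in the KspCre Tfam f/f-labelled libraries and 3.60, 6.93 and 1.13 CPM in those labelled Tfam f/f, with overlapping groups (95% interval of log2 -1.81 to 0.76).

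On chromosome 11, Slc22a21 and Slc22a4 lie 2.79 kb apart on the same strand and were called in opposite directions. Slc22a21, a carnitine carrier in mouse, had 5.50, 4.74 and 5.49 CPM in the KspCre Tfam f/f-labelled libraries, against 10.2, 7.53 and 11.6 CPM in those labelled Tfam f/f. It was 1.86-fold lower (log2 -0.90, SE 0.19, edgeR adjusted p = 0.00789), while Slc22a4 was higher, as given above. Of the 100-base windows of Slc22a21, 10.6% occur in another gene, which limits its counting. The Slco1a genes of chromosome 6 were called in 1 direction. Slco1a4, a bile acid and steroid carrier, had 3.15, 2.39 and 2.63 CPM in the KspCre Tfam f/f-labelled libraries and 0.220, 0.817 and 0.126 CPM in those labelled Tfam f/f, 6.47-fold higher (edgeR adjusted p = 0.00628) and 15.4-fold without replicate 2 of those labelled Tfam f/f. Slco1a6 was 3.78-fold higher (edgeR adjusted p = 0.0143) and 6.08-fold without the same library; without replicate 1 of those labelled Tfam f/f it was lost (adjusted p over all alternatives 3.72e-05 to 0.0933).

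Promoter sequence was read from RefSeq (GRCm38.p6) for 37 of the 48 members, which have 47 annotated starts; the 250 bases before each start were searched on both strands. A core of the HNF1 site, GTTAAT or its reverse complement ATTAAC, was in 3 of 47 member promoters (6.38%), those of Slc22a6, Slc22a8 and Slc22a29, and in 6.43% of 32851 promoters of all genes. The HNF4 core, AAAGTCC or GGACTTT, was in 3 of 47 (6.38%), those of Abcc4, Slc22a3 and Slc22a22, and in 3.58% of all. A match describes letters and not a bound site. The promoters of the neighbouring anion carriers Slc22a6 (chr19:8617746-8617995, plus strand) and Slc22a8 (chr19:8592932-8593181, plus strand) are printed because both hold GTTAAT, shown in capitals, although 1 gene passed and the other did not. Those of Slco1a1 (chr6:141946963-141947212, minus strand) and of Abcc4 at its upstream start (chr14:118706220-118706469, minus strand) are printed for the member with the largest fold change upward and the pump with the largest fall in CPM, and neither holds a searched motif. Each runs 5′ to 3′ on the strand of the gene.
Slc22a6: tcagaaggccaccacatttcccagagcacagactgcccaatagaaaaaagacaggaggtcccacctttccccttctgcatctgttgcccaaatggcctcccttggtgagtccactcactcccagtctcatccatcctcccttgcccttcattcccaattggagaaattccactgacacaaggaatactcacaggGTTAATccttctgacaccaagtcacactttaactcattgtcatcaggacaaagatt
Slc22a8: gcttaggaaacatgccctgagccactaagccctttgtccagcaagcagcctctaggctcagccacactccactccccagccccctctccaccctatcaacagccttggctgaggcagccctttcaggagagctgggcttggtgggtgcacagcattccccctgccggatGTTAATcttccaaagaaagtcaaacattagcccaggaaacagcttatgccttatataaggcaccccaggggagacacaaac
Slco1a1: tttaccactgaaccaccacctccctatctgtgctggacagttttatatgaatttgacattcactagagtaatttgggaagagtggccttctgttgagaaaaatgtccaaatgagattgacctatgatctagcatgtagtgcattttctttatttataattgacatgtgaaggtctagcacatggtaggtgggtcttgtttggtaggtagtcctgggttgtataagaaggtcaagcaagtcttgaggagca
Abcc4: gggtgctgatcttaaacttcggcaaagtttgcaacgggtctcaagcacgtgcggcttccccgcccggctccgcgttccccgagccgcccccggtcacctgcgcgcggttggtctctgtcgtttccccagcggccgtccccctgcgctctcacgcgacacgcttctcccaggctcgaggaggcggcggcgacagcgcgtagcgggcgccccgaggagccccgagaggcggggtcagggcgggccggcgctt

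Members with no membrane side assigned were 20 in number, of which 9 were called higher, 3 lower and 8 did not pass. Slco3a1, a prostaglandin and thyroid hormone carrier, had 243, 247 and 253 CPM in the KspCre Tfam f/f-labelled libraries, against 96.2, 101 and 77.1 CPM in those labelled Tfam f/f. It was 2.71-fold higher (log2 1.44, SE 0.13, edgeR adjusted p = 0.000341) with a narrow spread in both groups. Slc22a22, a prostaglandin carrier of mouse kidney, was 4.85-fold higher (edgeR adjusted p = 0.0245) and 9.65-fold without replicate 2 of those labelled Tfam f/f, but was lost without any 1 of the KspCre Tfam f/f-labelled libraries or without replicate 1 of the others (adjusted p over all alternatives 0.00317 to 0.147). Slc22a18 was 2.80-fold higher (edgeR adjusted p = 0.0167), lost without replicate 2 of those labelled KspCre Tfam f/f (range 0.000193 to 0.0675), and Slc22a23 was 1.51-fold higher (edgeR adjusted p = 0.0342), lost without any 1 of those libraries or without replicate 1 of the others (range 0.0104 to 0.341). Each of these 3 calls thus depended on at least 1 single library. Slco4a1, a thyroid hormone carrier found widely in tissues, had 12.05, 12.998 and 15.49 CPM in the KspCre Tfam f/f-labelled libraries and 36.7, 27.0 and 37.4 CPM in those labelled Tfam f/f, 2.50-fold lower (edgeR adjusted p = 0.00101). Slc22a15 had 2.87, 2.66 and 4.04 CPM in the KspCre Tfam f/f-labelled libraries and 7.20, 5.95 and 12.8 CPM in those labelled Tfam f/f, 2.72-fold lower (edgeR adjusted p = 0.00939). Both lower genes kept their groups apart.

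Of the 3 intracellular members, Slc17a5, the lysosomal sialic acid carrier sialin, had 103, 110 and 106 CPM in the KspCre Tfam f/f-labelled libraries and 63.2, 76.1 and 54.3 CPM in those labelled Tfam f/f, 1.64-fold higher (edgeR adjusted p = 0.00459). The vesicular carriers Slc17a8 (glutamate) and Slc17a9 (nucleotides) were below 3 CPM in each library and did not pass. The other members that did not pass were Slc17a4, Slc22a14, Slc22a17, Slco2a1 and Slco2b1, with log2 fold changes between -0.44 and 0.53. Slco2b1 had 24.2, 24.5 and 24.2 CPM in the KspCre Tfam f/f-labelled libraries and 19.1, 27.1 and 22.6 CPM in those labelled Tfam f/f (95% interval of log2 -0.23 to 0.39). Slc22a17, a lipocalin receptor, missed the threshold at an adjusted p of 0.0502 (edgeR; log2 -0.44, 95% interval -0.81 to -0.08, range over all alternatives 0.00245 to 0.154). Near the inclusion sum, Slc22a27 had raw counts of 13, 22 and 13 in the KspCre Tfam f/f-labelled libraries and 5, 19 and 3 in those labelled Tfam f/f, with overlapping groups. Just outside it, Slc17a2 had raw counts of 9, 16 and 7 in the KspCre Tfam f/f-labelled libraries and 3, 1 and 2 in those labelled Tfam f/f, and was not a member.

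To put the members on 1 scale of level, CPM was divided by kilobases of exon, counted over all annotated transcripts of a gene. That length can exceed the length of the RNA made. Ranks within a label and the size of ratios between genes therefore depend on the annotation, while comparisons of 1 gene or ratio between labels do not. Slc22a12 ranked highest under both labels, with 930 ± 55.2 CPM per kb in the KspCre Tfam f/f-labelled libraries and 227 ± 139 in those labelled Tfam f/f (SD, n = 3 each). In the KspCre Tfam f/f-labelled libraries, Slc17a1 (333 ± 3.01), Slc22a18 (288 ± 18.8), Slc22a6 (282 ± 17.2) and Slc47a1 (253 ± 10.9 CPM per kb) followed, and Slc22a18 and Slc22a6 differed by less than their spread. The order changed most for 3 genes. Slc22a7 ranked 10 of 48 in the KspCre Tfam f/f-labelled libraries and 34 in those labelled Tfam f/f, and Slco1a1 ranked 13 in the KspCre Tfam f/f-labelled libraries and 38 in those labelled Tfam f/f. Abcc4 moved the other way, ranking 26 in the KspCre Tfam f/f-labelled libraries, at 8.29 ± 1.46 CPM per kb, and 8 in those labelled Tfam f/f, at 50.4 ± 9.97.

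Ratios between members of a pair, taken within each library, do not depend on the scaling between libraries. The 5 pairs were chosen after values were seen, and no test is given; 3 against 3 libraries could not reach an exact permutation p below 0.1. Per kilobase, Slc22a6 over Slc22a8 was 1.62, 1.81 and 1.89 in the KspCre Tfam f/f-labelled libraries and 0.887, 0.912 and 0.904 in those labelled Tfam f/f. The ratio was nearly constant within the Tfam f/f-labelled libraries, although the level of each gene there varied several-fold. Slc17a3 over Slc17a1 was 0.363, 0.381 and 0.426 in the KspCre Tfam f/f-labelled libraries and 0.179, 0.245 and 0.134 in those labelled Tfam f/f. In each of these 2 pairs of like carriers, the ratios did not overlap between labels. Whether the 2 genes of a pair differ unequally was not tested. Slc47a1 over Slc22a2, cation exit over cation uptake, was 1.47, 1.52 and 1.42 in the KspCre Tfam f/f-labelled libraries and 1.81, 1.96 and 3.19 in those labelled Tfam f/f. Abcc4 over Abcc2, which are both apical anion pumps, was 0.106, 0.117 and 0.0727 in the KspCre Tfam f/f-labelled libraries and 1.27, 0.983 and 1.97 in those labelled Tfam f/f.

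**Figure D4:**
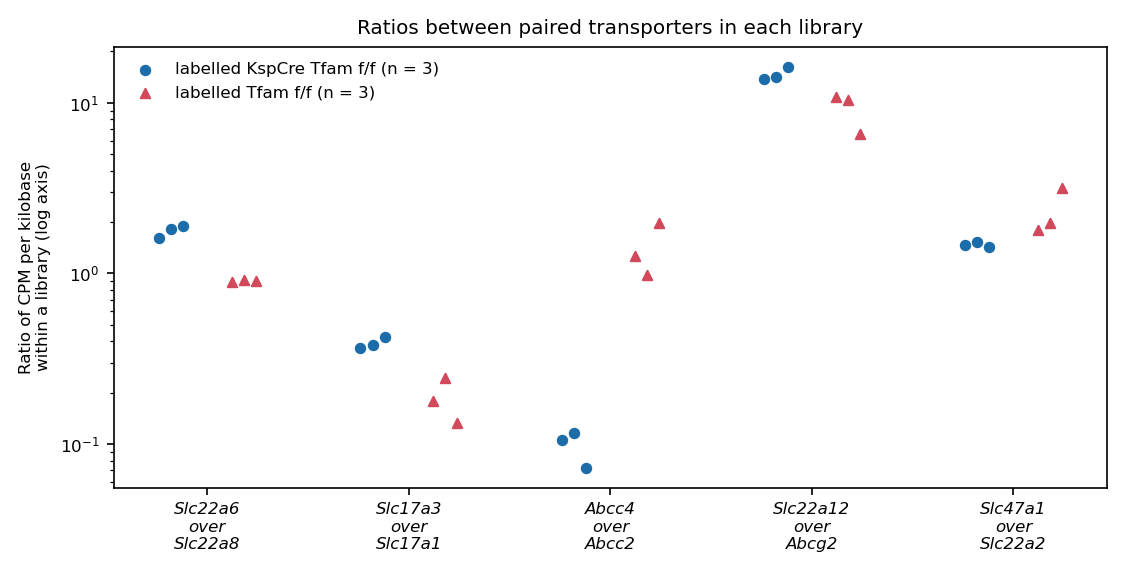
Ratio of CPM per kilobase between 2 transporters within each library (log axis), with circles for KspCre Tfam f/f-labelled libraries and triangles for those labelled Tfam f/f. The pairs were chosen after values were seen, and none of them overlaps between labels. Abcc4 over Abcc2 is furthest apart, with circles at 0.0727 to 0.117 and triangles at 0.983 to 1.97.

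The Tfam f/f-labelled libraries were unlike each other. The median coefficient of variation of the 48 genes was 8.20% among the KspCre Tfam f/f-labelled libraries and 45.7% among those labelled Tfam f/f, and it was larger in those labelled Tfam f/f for 47 of 48. Relative to the mean of the KspCre Tfam f/f-labelled libraries, the 29 members called higher stood at a median of 32.2, 42.9 and 15.4% in replicates 1, 2 and 3 of those labelled Tfam f/f. The order with replicate 2 highest and replicate 3 lowest held for 27 of the 29 members (93.1%), for 16 of the 18 proximal tubule markers called higher (88.9%) and for 56.3% of the 3690 genes called higher in all. The 7 members called lower stood at medians of 271, 200.03 and 277% in the same 3 libraries. Among these lower members, replicate 3 of those labelled Tfam f/f was the highest of its group for Abcc3, Slc22a15, Slco4a1 and Slc22a21. It was the lowest for Abcc4 and, by a narrow margin, for Abcc5, and lay between the others for Abcc1.

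Markers of the proximal tubule, where most of these carriers are made, moved with them. Of 25 markers tested, 18 were called higher in the KspCre Tfam f/f-labelled libraries, 0 lower and 7 did not pass, although 20 had an unadjusted edgeR p under 0.05. Their median log2 fold change was 1.52, and their summed level was 66222 to 69775 CPM in the KspCre Tfam f/f-labelled libraries and 5884 to 23734 CPM in those labelled Tfam f/f. In replicates 1, 2 and 3 of those labelled Tfam f/f the markers stood at medians of 31.0, 52.6 and 11.7% of the mean of the other label, the same order as the carriers. Of the 48 members, 15 had a log2 fold change above the marker median, 2 (Slco1a1 and Slc22a7) lay above every marker, and 14 lay below every marker. Markers of injured tubule were all lower in the KspCre Tfam f/f-labelled libraries, 9 of 9, with summed levels of 826 to 890 CPM in the KspCre Tfam f/f-labelled libraries and 3160 to 13260 CPM in those labelled Tfam f/f. Macrophage markers were called lower for 11 of 12, with sums of 143 to 158 CPM in the KspCre Tfam f/f-labelled libraries and 194 to 606 CPM in those labelled Tfam f/f. The part of these cells in the transporter differences was not tested.

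Markers of other kidney cells were mixed. In the KspCre Tfam f/f-labelled libraries, thick ascending limb markers were called higher for 4 of 7 and lower for 1, and distal and collecting duct markers higher for 8 of 15 and lower for 3. Endothelial markers were called higher for 1 of 9 and fibroblast and mural markers higher for 2 and lower for 2 of 8, while podocyte markers were higher for 3 of 5. Hepatocyte markers, included because liver shares many of these carriers, were called higher for 3 and lower for 2 of 6 tested, and Cps1 and Ahsg did not pass the filter on low counts. That list had summed levels of 115 to 154 CPM in the KspCre Tfam f/f-labelled libraries and 89.5 to 219 CPM in those labelled Tfam f/f.

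**Figure D5:**
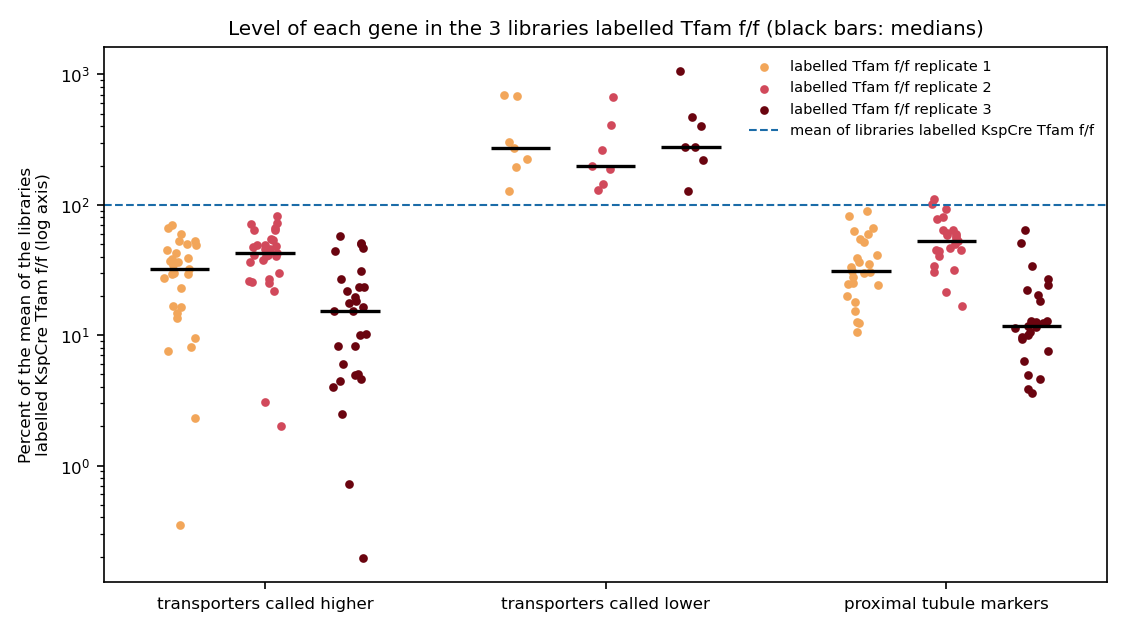
Level of each gene in each of the 3 Tfam f/f-labelled libraries as a percent of the mean of the KspCre Tfam f/f-labelled libraries (log axis, dashed line at 100%), for the 29 transporters called higher, the 7 called lower and 25 proximal tubule markers; black bars are medians. Transporters called higher have medians of 32.2, 42.9 and 15.4% in replicates 1, 2 and 3, and the markers 31.0, 52.6 and 11.7%.

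The scaffold and the carriers that supply driving force to organic anion transport were higher in the KspCre Tfam f/f-labelled libraries for 8 of 10 genes, with 2 not passed. Pdzk1, the apical scaffold that binds URAT1 and other carriers, had 1517, 1522 and 1551 CPM in the KspCre Tfam f/f-labelled libraries and 472, 711 and 223 CPM in those labelled Tfam f/f, 3.26-fold higher (edgeR adjusted p = 0.0102). Slc5a8, a sodium-coupled lactate carrier, was 4.42-fold higher (edgeR adjusted p = 0.00929) and 7.09-fold without replicate 2 of those labelled Tfam f/f, but was lost with no filter on low counts (range over all alternatives 2.10e-06 to 0.0608). Slc2a9, the urate carrier GLUT9, was 2.11-fold higher (edgeR adjusted p = 0.00194). Slc13a3, the basolateral dicarboxylate carrier that loads the cell with alpha-ketoglutarate, had 822, 869 and 780 CPM in the KspCre Tfam f/f-labelled libraries and 410, 532 and 125 CPM in those labelled Tfam f/f and did not pass (edgeR adjusted p = 0.0639); it was named after its values were seen.

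Other drug and solute transporters were called higher for 8 and lower for 3 of 15 tested. Among those higher in the KspCre Tfam f/f-labelled libraries were the peptide carrier Slc15a2 (2.49-fold, edgeR adjusted p = 0.000177), the folate carrier Slc46a1 (2.09-fold, 0.00161) and the nucleoside carrier Slc29a3 (2.36-fold, 0.00527). The nucleoside carriers Slc29a2 (2.45-fold, edgeR adjusted p = 0.000380) and Slc29a1 (1.30-fold, 0.0155) and the drug pump Abcb1b (1.98-fold, 0.0390) were lower. Among 14 regulators known to act on such genes, 8 were called higher and 3 lower. Hnf4g (2.76-fold, edgeR adjusted p = 0.00333) and Rxra (1.87-fold, 0.00688) were higher, while Nfe2l2, the oxidative stress regulator NRF2 (1.37-fold, edgeR adjusted p = 0.00894), the xenobiotic receptor Nr1i2 (1.37-fold, 0.0290) and the dioxin receptor Ahr (1.43-fold, 0.0438) were lower. The calls of Abcb1b, Ahr, Nfe2l2, Nr1i2 and Slc29a1 were lost without 1 or more single libraries. Those of Abcb1b and Nr1i2 were also lost with no filter on low counts, those of Nr1i2 and Ahr after thinning to the shallowest library, and that of Nr1i2 with the replicate number as a block (adjusted p = 0.0941, range over all alternatives 0.00229 to 0.127).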

How the data were processed

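Whole-kidney poly A+ RNA was read as stranded dUTP pairs of 150 bases, per the labels' protocols. The deposited values are raw counts per gene that the authors left unnormalized. STAR 2.4.1d, HTSeq 0.11.0, Trim Galore and FastQC are named in the submitters' processing notes, with genome build mm10; annotation release and counting strand were not given in the sources used here. The 5 summary lines (16.0% to 20.4% of each file) were left out.

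Counts were tested with edgeR 4.0.16 (R 4.3.3): filterByExpr (minimum count 10, minimum total 15) left 17308 genes, followed by TMM scaling, a robust quasi-likelihood fit over the 6 libraries by label, and Benjamini-Hochberg adjustment over all tested genes with calls below 0.05. The code was tested on simulated counts of 17041 genes with the same spread under both labels, unlike these libraries. It called 21.9% of 1.5-fold, 63.5% of 2-fold and 87.7% of 4-fold changes, with 14 false calls. A gene that did not pass may therefore still differ. CPM was computed with the TMM factors. A log2 fold change is KspCre Tfam f/f minus Tfam f/f by label, and its SE came from the fold and the F statistic. Gene models were from GENCODE release M21, where 40 of 48 member IDs matched with their version. The share of 100-base windows of a gene that occur in another gene was counted on the transcripts of that release.

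Members, roles, lists and tests were chosen with earlier results of these data known. Per-library values are given for tested apical and basolateral members, for up to 4 further called members with the largest change in each direction and for members at the inclusion sum, with some others named after their values were seen; other genes named were up to 3 called genes per list and direction with the smallest p. Alternatives were other scaling, other filters on low counts, removal of mitochondrial genes, a 1.5-fold minimum, DESeq2 1.42.0, the replicate block, each library left out, and thinning to the shallowest library, which was added after the data were seen. Libraries of 1 label differed by more than sampling noise, so none was merged. Some genes counted in the families and lists are not reported here by name.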

Additional observations from a re-analysis of the deposited data

How the results depend on the processing

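No called gene named here changed direction under any alternative run. Of 44 called genes named by the rule, 26 kept their call in all 14 alternatives and 18 lost it in at least 1. With no scaling factors, 1680 genes were called higher and 8519 lower in the KspCre Tfam f/f-labelled libraries; the members' lower calls were 11, with 3 higher in Abcc and Abcg2, 1 lower in Slc17a, 1 higher in Slc47a and 2 lower in Slco. With no low-count filter, the members' higher calls were 16, with 6 in Slc22a, 2 in Abcc and Abcg2, 1 in Slc47a and 3 on the basolateral side. That setting ended the calls of Slc22a6, Slc22a12, Slc22a13, Slc22a18, Slc22a22, Slc22a28, Slc22a30, Slco1a6, Slc47a2, Abcc2, Abcc8, Abcc9, Slc5a8, Abcb1b and Nr1i2 among others; the cause was not tested. Without scaling factors Abcc10, Slc17a9, Slc22a17 and Slco2a1 passed, as did Slc22a17, Slc22a27 and Slco2a1 without replicate 2, and Slc22a8 and Slc22a29 without replicate 3, of the Tfam f/f-labelled libraries. Slc47a had 1 higher call with DESeq2, with the replicate block and after thinning, where Abcc8 and Slc47a2 were no longer tested. Leaving out 1 library each time gave 2276 to 4652 genes higher and 2822 to 4942 lower, and 17 to 29 members higher and 6 to 9 lower. Higher calls were then 8 to 15 in Slc22a, 1 to 4 in Abcc and Abcg2, 1 to 2 in Slc47a, 8 to 12 apical and 2 to 6 basolateral, and lower calls 1 to 2 in Slco, 2 to 3 in Slc22a and 2 to 3 basolateral. The fewest members, 17, were called higher without replicate 1 of the Tfam f/f-labelled libraries. No pairing of libraries by replicate number was seen, though a check on 3 libraries per label cannot exclude one. Deviations of same-numbered libraries correlated at -0.17, -0.07 and -0.07 over 17308 genes, with no pair best matched to its own number. With that number as a block, 27 members were called higher and 7 lower, with Abcc8 and Slc47a2 lost; Nr1i2 was lost too.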
